A study of Mus musculus with 12 samples.

Results

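The TAM receptor tyrosine kinases Axl, Mertk and Tyro3 and their ligands Gas6 and Pros1 were followed across 12 RNA-seq libraries of glia sorted from the mouse hippocampus. All 5 genes were matched by symbol to Ensembl mouse identifiers and were listed in both gene count tables, which hold 32783 genes between them. The set was chosen by the behaviour of Axl, whose reads were lower in astrocyte libraries and higher in CD11b libraries of mice given the A2A vector, so the differences by vector are given for the 5 members as a description, with no p-value. Male C57Bl6/J mice received a viral vector bilaterally in the CA1 region at 2 months of age and cells were sorted 2 months later, at 4 months. The vector was AAV2/9_GfaABC1D-Bglob-A2AR-WPRE, carrying the mouse adenosine A2A receptor (AAV-A2A), or AAV2/9-GfaABC1D-Bglob-GFP-WPRE, carrying a green fluorescent protein (AAV-GFP, the control). Both are driven by GfaABC1D, a short promoter that favours expression in astrocytes, so every animal carried a vector and the transgene was not aimed at microglia. Cells of the whole dissected hippocampi, and not only of the injected CA1, were sorted on beads against ACSA-2, an astrocyte surface antigen (the astrocyte fraction), and the unbound cells were then sorted on beads against CD11b, a surface integrin of microglia and other myeloid cells (the microglia fraction). Each of the 4 groups had 3 libraries, named here by vector and number. The labels do not say whether the libraries of the 2 fractions came from the same animals, so fraction and animal cannot be told apart.

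TAM receptors do not bind the engulfed cell themselves. Gas6 and Pros1 (protein S) are vitamin K-dependent bridging proteins: one end, carboxylated on glutamate residues, holds phosphatidylserine on a dying cell, a synapse or debris, and the other end binds the receptor and switches on its kinase. Gas6 binds all TAM receptors, and protein S binds Tyro3 and Mertk but not Axl. In the brain Mertk takes part in engulfment by microglia and astrocytes, Axl is best known as a receptor that reactive myeloid cells raise and as a brake on inflammation, and Tyro3 is mainly a neuronal receptor. The A2A receptor couples to a stimulatory G protein that raises cyclic AMP.

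The genes lie on GRCm38 (mm10) at chr7:25757273-25788705 on the minus strand for Axl (ENSMUSG00000002602), chr2:128698956-128802894 on the plus strand for Mertk (ENSMUSG00000014361), chr2:119797733-119818104 on the plus strand for Tyro3 (ENSMUSG00000027298), chr8:13465374-13494490 on the minus strand for Gas6 (ENSMUSG00000031451) and chr16:62854307-62929346 on the plus strand for Pros1 (ENSMUSG00000022912). All are protein coding. Gas6 shares 34 of its 2548 exonic bases with Tmem255b on the opposite strand, and since no strand setting of the read counting is stated, reads in those bases cannot be told apart. The annotated promoters of the receptor and ligand whose levels differed by vector in astrocytes (Axl and Gas6) and of the receptor that made up most of the reads in the microglia fraction (Mertk) are given as the 250 bases before the gene's start, from RefSeq (GRCm38.p6), 5′ to 3′ on the gene's strand. Capitals mark the GC box, GGGCGG or its complement CCGCCC, which is bound by Sp1-family factors. The windows are chr7:25788734-25788983 (minus) for Axl, chr8:13494536-13494785 (minus) for Gas6 and chr2:128698665-128698914 (plus) for Mertk.
Axl: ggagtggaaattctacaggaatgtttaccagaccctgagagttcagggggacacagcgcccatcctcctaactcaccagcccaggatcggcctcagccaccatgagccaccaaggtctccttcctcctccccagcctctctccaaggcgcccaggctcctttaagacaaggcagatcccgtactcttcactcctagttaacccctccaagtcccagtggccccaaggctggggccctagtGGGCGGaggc
Gas6: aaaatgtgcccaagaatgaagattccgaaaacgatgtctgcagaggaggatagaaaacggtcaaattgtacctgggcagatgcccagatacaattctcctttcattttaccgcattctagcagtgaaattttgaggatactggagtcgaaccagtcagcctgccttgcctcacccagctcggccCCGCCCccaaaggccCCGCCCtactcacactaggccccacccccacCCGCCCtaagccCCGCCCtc
Mertk: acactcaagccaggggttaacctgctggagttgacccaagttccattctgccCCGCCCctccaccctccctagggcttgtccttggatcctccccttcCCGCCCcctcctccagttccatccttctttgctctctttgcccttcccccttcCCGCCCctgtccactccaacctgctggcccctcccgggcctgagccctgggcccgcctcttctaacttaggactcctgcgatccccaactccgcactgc
The Axl window held 1 GC box, Mertk 3, Tyro3 3, Gas6 4 and Pros1 5, and 32.7% of all 32851 promoter windows of the same length held at least 1. The cyclic AMP response element TGACGTCA, searched on both strands, was in none of the 5 member windows and in 1.55% of all windows. Its shorter form TGACG, which lies within the full element, was also in none of the 5 and in 17.8% of all windows.

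Gene-assigned reads numbered 33937067 to 49217553 per library in the astrocyte fraction and 36098295 to 53206974 in the microglia fraction. Levels are in CPM, reads of a gene relative to the gene-assigned total of its library after TMM scaling over the 12 libraries, and are given as mean ± SD of 3 libraries. Adora2a, the gene the vector carries, was at 25.0, 23.2 and 25.6 CPM in the AAV-GFP astrocyte libraries and at 764, 655 and 926 CPM in the AAV-A2A ones (log2 FC 5.02, SE 0.21, edgeR adjusted p = 1.55e-05). In CD11b libraries it was at 3.77 to 8.30 CPM with AAV-GFP and at 15.0 to 45.2 CPM with AAV-A2A (log2 FC 2.20, SE 0.54, edgeR adjusted p = 0.28). The 5 summed astrocyte markers (led by Aldoc) reached 20673 to 32559 CPM in the ACSA-2 libraries and 159 to 424 CPM in the CD11b libraries. The 5 microglia markers, with Csf1r the most abundant, were at 208 to 369 CPM in the ACSA-2 libraries and at 6198 to 52103 CPM in the CD11b libraries. Mural cell markers (led by Vtn) were at 3451 to 4889 CPM in the ACSA-2 libraries and at 573 to 1808 CPM in the CD11b libraries. The ACSA-2 libraries also held ependymal markers at 405 to 1534 CPM and choroid plexus markers at 558 to 1007 CPM. The part of these cells in the levels of the members was not tested. The CD11b libraries split on choroid plexus markers (Ttr, Kl, Folr1, Clic6 and Kcne2), which summed to 72246, 60264 and 28923 CPM in GFP-2328, GFP-2329 and A2A-2347 and to 93.5 CPM or less in GFP-2331, A2A-2343 and A2A-2344. These are called choroid plexus-rich and choroid plexus-poor, and the levels of each member in the microglia fraction are also given within these sets.

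Axl, the receptor that takes Gas6 alone, had its highest levels in the control astrocytes. It was at 433, 461 and 505 CPM in the AAV-GFP astrocyte libraries and at 213, 141 and 194 CPM in the AAV-A2A ones. Every AAV-A2A library lay under every control, and the means were 182.6 ± 37.2 against 466 ± 36.7 CPM (log2 FC -1.33, SE 0.19). The order was turned in the microglia fraction: Axl was at 28.1, 25.2 and 48.5 CPM with AAV-GFP and at 109, 168 and 156 CPM with AAV-A2A (log2 FC 2.08, SE 0.36). Here every AAV-A2A library lay above every control. It follows that AAV-A2A is also higher inside each choroid plexus set, so the sets add no separate evidence on direction. The ratio was 5.84 in the rich libraries (1 AAV-A2A library at 156 CPM against a control mean of 26.7 CPM). In the poor ones it was 2.86 (an AAV-A2A mean of 139 CPM against 1 control at 48.5 CPM). The astrocyte libraries with AAV-A2A and the microglia libraries with AAV-A2A overlapped in Axl level, and no other neighbouring pair of groups did. In bulk libraries, fewer cells of a type and less RNA per cell cannot be told apart.

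Some marker lists of other cells did not overlap between the vectors. Among single genes, such a lack of overlap was seen for 19.4% of those tested in astrocytes and 22.4% in the microglia fraction. The counts of lists are therefore given as a description. In the astrocyte fraction the astrocyte markers overlapped between vectors (20673 to 25212 CPM with AAV-GFP, 20717 to 32559 CPM with AAV-A2A). There, 2 of 13 marker lists did not overlap, both lower with AAV-A2A: oligodendrocyte precursors (194 to 302 against 49.4 to 76.1 CPM, nearly all of it Cspg4, at a mean of 259 against 56.4 CPM, while Gpr17 of that list was at 0 in the AAV-GFP libraries) and monocytes and neutrophils (2.43 to 3.74 against 0.168 to 0.543 CPM, led by S100a9). In the microglia fraction 4 of 13 lists did not overlap, all lower with AAV-A2A. They were endothelial cells (586 to 1516 against 371 to 432 CPM, led by Cldn5), ependymal cells (129 to 261 against 31.4 to 60.8 CPM, led by Ccdc153), erythrocytes (753 to 4594 against 43.5 to 188 CPM, led by Hbb-bs) and neurons (10.4 to 85.8 against 3.14 to 5.15 CPM, led by Snap25). The border macrophage list, led by F13a1, overlapped (47.5 to 209 against 166 to 236 CPM). The part of these cells in the differences of Axl was not tested.

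**Figure D1:**
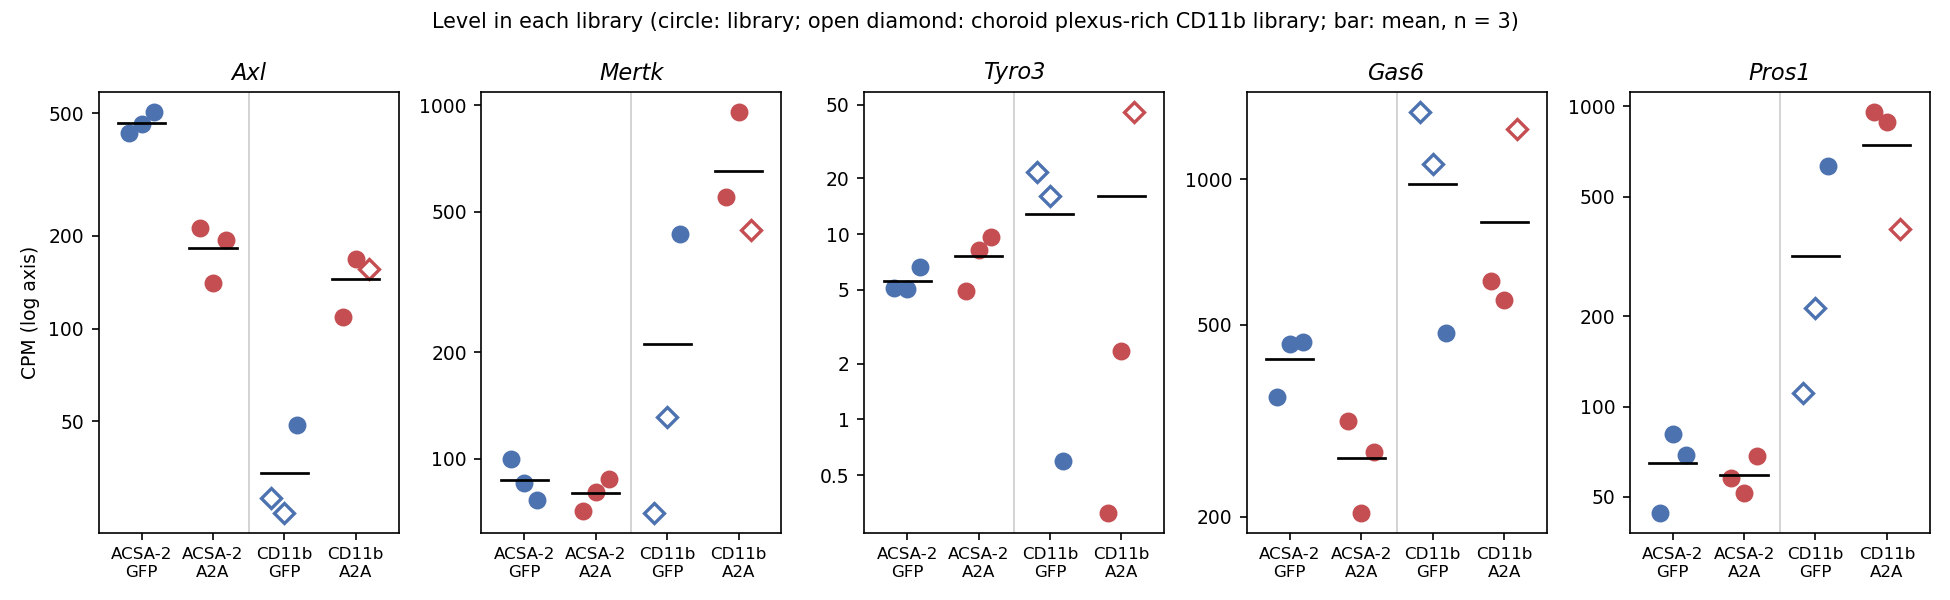
Level of each gene in each of the 12 libraries, in CPM on log axes that differ between panels, by sorted fraction (ACSA-2, CD11b) and vector (GFP, A2A), with a bar at the mean of 3 libraries and open diamonds for the 3 choroid plexus-rich CD11b libraries. Axl is highest to lowest in the order control astrocytes, A2A astrocytes, A2A microglia, control microglia, while Tyro3 and Gas6 in the CD11b libraries sit high in the open diamonds.

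Mertk, the receptor most tied to engulfment, did not separate the vectors in astrocytes. It was at 99.96, 85.6 and 76.3 CPM with AAV-GFP and at 71.2, 80.7 and 87.4 CPM with AAV-A2A (log2 FC -0.10, SE 0.19). Mertk in the CD11b libraries was at 70.3, 131 and 431 CPM with AAV-GFP and at 549.8, 957 and 443 CPM with AAV-A2A (log2 FC 1.61, SE 0.70). These groups did not overlap, but the control GFP-2331 lay only just under A2A-2347. Leaving out 1 library moved the value from 1.22 (without GFP-2328) to 2.62 (without GFP-2331). Within the choroid plexus-rich libraries the AAV-A2A library was at 4.40 times the controls, and within the poor ones the AAV-A2A mean was 1.75 times the single control.

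Tyro3 was the lowest of the receptors in every group. In astrocytes it was at 5.10, 5.09 and 6.62 CPM with AAV-GFP and at 4.95, 8.20 and 9.71 CPM with AAV-A2A (log2 FC 0.48, SE 0.40), with overlap. Among the CD11b libraries it separated by choroid plexus set: 21.7, 16.2 and 45.7 CPM in the rich libraries GFP-2328, GFP-2329 and A2A-2347, and 0.60, 0.313 and 2.34 CPM in the poor libraries GFP-2331, A2A-2343 and A2A-2344. Within a set it did not rise with the marker sum. The rich libraries averaged 25.7 times the poor ones with no overlap, and the 6 levels spanned 146-fold. The value by vector there (log2 FC 0.38, SE 1.76) rested on A2A-2347 and was -3.38 without it. Within the sets the ratio of AAV-A2A to AAV-GFP was 2.41 in the rich and 2.21 in the poor libraries.

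Gas6, the ligand of all TAM receptors, was lower in astrocytes with AAV-A2A. It was at 354, 456 and 461 CPM with AAV-GFP and at 316, 204 and 272 CPM with AAV-A2A, without overlap (log2 FC -0.65, SE 0.21). The CD11b libraries held Gas6 at 1378, 1074 and 481 CPM with AAV-GFP and at 616, 563 and 1271 CPM with AAV-A2A (log2 FC -0.27, SE 0.61). Those values separated by choroid plexus set and not by vector. The rich libraries averaged 2.24 times the poor ones with no overlap. Inside the sets the AAV-A2A to AAV-GFP ratio was 1.04 in the rich and 1.23 in the poor libraries.

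Pros1, which encodes protein S, was at 44.3, 80.8 and 69.1 CPM in astrocytes with AAV-GFP and at 57.7, 51.5 and 68.2 CPM with AAV-A2A (log2 FC -0.10, SE 0.25), so the groups overlapped. The CD11b libraries held Pros1 at 111, 214 and 631 CPM with AAV-GFP and at 958, 886 and 389.7 CPM with AAV-A2A (log2 FC 1.20, SE 0.69), again with overlap. Without GFP-2328 the value was 0.81, and without GFP-2331 it was 2.12. Within the choroid plexus sets the ratio of AAV-A2A to AAV-GFP was 2.40 in the rich and 1.46 in the poor libraries. Unlike Gas6, it was lower in the choroid plexus-rich libraries, at 0.288 times the poor ones with no overlap. Pros1 and Mertk ran together over the 12 libraries (Pearson r of log2 CPM 0.94). Those points share fraction and library, so the correlation is a description.

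Set against all genes, 1 of the 5 members (Axl) was called by vector in astrocytes by edgeR (called where the adjusted p was below 0.05 and the log2 FC above 0.32 in size), where 3.36% of 16451 genes tested were called. DESeq2, the tool the study used, called 2 (Axl and Gas6) where it called 7.13% of all genes. Fitting all 12 libraries at once called none of the 5. In astrocytes 2 members (Axl and Gas6) did not overlap between vectors, against 19.4% of all genes. Among the CD11b libraries edgeR called 0 of 5 members and 0% of 16949 genes. At an unadjusted p under 0.05 it had 1 member and 2704 genes. DESeq2 called 1 member (Axl) there and 2.9% of all genes, and 2 members (Axl and Mertk) did not overlap, against 22.4% of all genes. As Axl chose the set, nothing is read from these counts. The median log2 FC of the 5 was -0.10 in astrocytes and 1.20 in the microglia fraction, beside 0.02 and -0.05 over all genes. With the choroid plexus set as a term, chosen after seeing the data, the microglia values were 2.05 for Axl, 1.49 for Mertk, 1.24 for Tyro3, 0.19 for Gas6 and 0.93 for Pros1. In the poor libraries alone they were 1.50, 0.79, 1.12, 0.27 and 0.53.

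**Figure D2:**
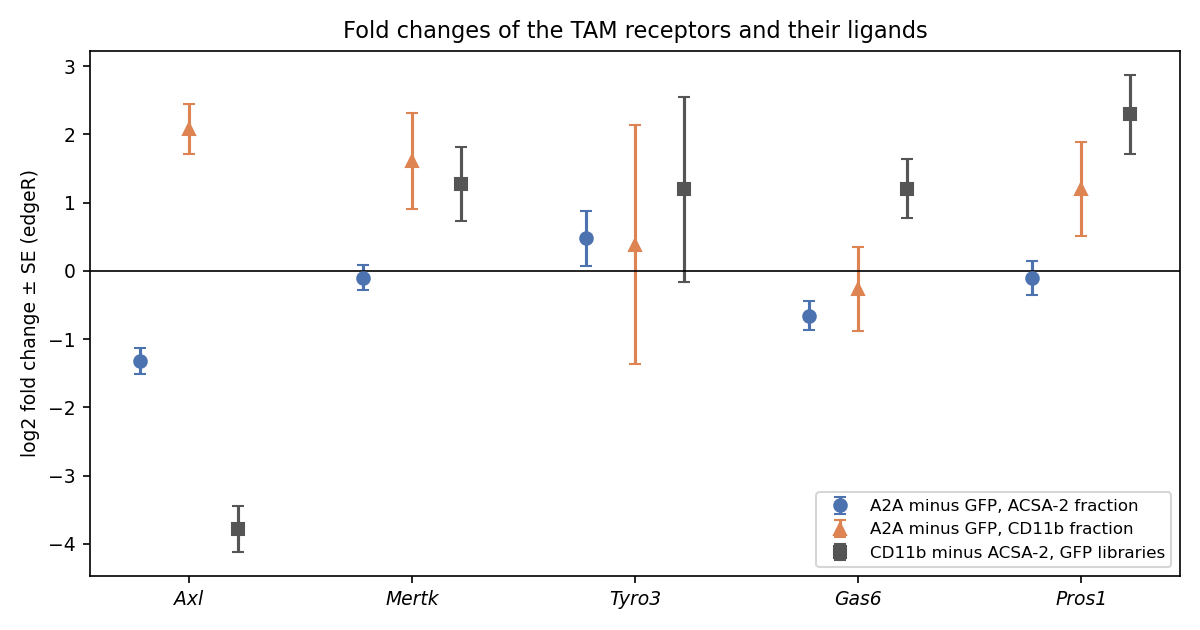
Log2 fold change ± SE (edgeR) of each gene for AAV-A2A minus AAV-GFP in the ACSA-2 and the CD11b libraries and for CD11b minus ACSA-2 in the AAV-GFP libraries. Axl lies at -1.33 and 2.08 by vector and at -3.78 between fractions, and the bars of Tyro3 in the CD11b comparisons cross 0.

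Microglia content differed among the CD11b libraries, so each member was also set against the 5 summed microglia markers (6198, 12586, 46236 CPM with AAV-GFP and 52103, 44782, 18465 CPM with AAV-A2A). Per 1000 CPM of these markers, Axl was at 4.54, 2.00 and 1.05 with AAV-GFP and at 2.09, 3.76 and 8.43 with AAV-A2A. On this scale the vectors overlapped for Axl, and the ratio of the means was 1.88. Mertk was at 11.3, 10.4 and 9.32 with AAV-GFP and at 10.6, 21.4 and 24.0 with AAV-A2A, which also overlapped. Pros1 varied least, from 13.6 to 17.8 with AAV-GFP and from 18.4 to 21.1 with AAV-A2A, so its groups did not overlap. It spanned 1.55-fold over the 6 libraries, where its CPM spanned 8.66-fold. Gas6 and Tyro3 kept no such ratio, from 10.4 to 222 and from 0.0060 to 3.51 per 1000 CPM, and both overlapped between vectors.

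**Figure D3:**
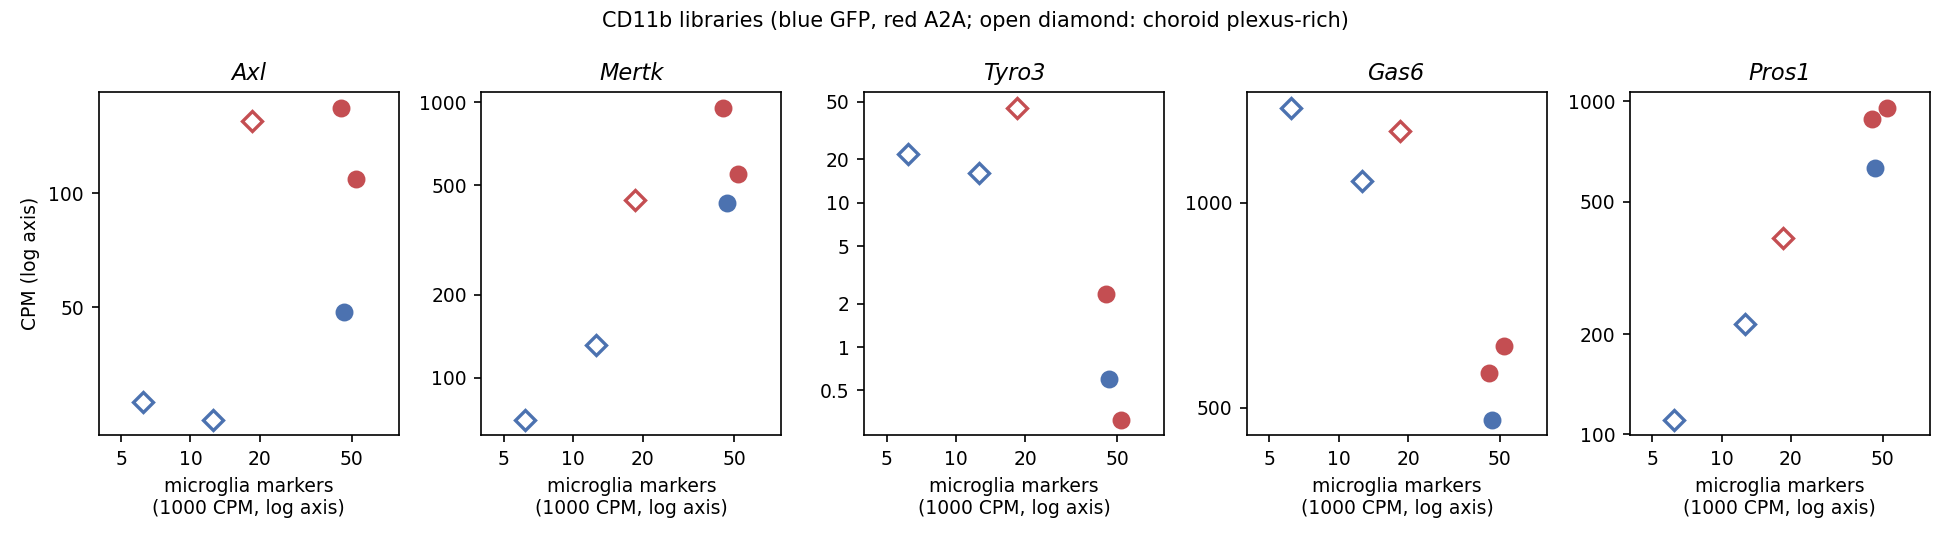
CPM of each gene in the 6 CD11b libraries against the summed CPM of 5 microglia markers (in 1000 CPM), both on log axes, blue for AAV-GFP, red for AAV-A2A and open diamonds for choroid plexus-rich libraries. Pros1 is high in the 3 libraries richest in the markers, and Gas6 and Tyro3 are high in the 3 poorest in them. Axl is at 48.5 CPM in GFP-2331, the only control of that marker level, and at 109 and 168 CPM in A2A-2343 and A2A-2344. Per 1000 CPM of markers the vectors overlapped for Axl, with the control GFP-2328 at 4.54, above A2A-2343 (2.09) and A2A-2344 (3.76).

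Between genes, levels were compared per kb of merged exon length. In both astrocyte groups the order was Gas6, Axl, Mertk, Pros1 and Tyro3, at 166, 92.7, 20.1, 15.8 and 0.904 CPM per kb with AAV-GFP and at 104, 36.3, 18.4, 14.5 and 1.23 CPM per kb with AAV-A2A. Mertk and Pros1 overlapped in both, and the other neighbours did not. In the microglia fraction the order was Gas6, Pros1, Mertk, Axl and Tyro3, at 384, 77.9, 48.6, 6.74 and 2.07 CPM per kb with AAV-GFP and at 320, 182, 150 and 28.7 followed by 2.60 CPM per kb with AAV-A2A. Pros1 and Mertk overlapped in both vectors there, and Gas6 and Pros1 overlapped with AAV-A2A. Summed over the receptors, the level per kb was 114 ± 4.81 in control and 55.9 ± 6.89 in AAV-A2A astrocytes, and 57.4 ± 45.2 and 181 ± 63.6 CPM per kb in the microglia fraction. The summed ligands were at 182 ± 28.0 and 118 ± 23.3 CPM per kb in astrocytes and at 462 ± 113 and 503 ± 81.6 CPM per kb in the microglia fraction. By choroid plexus set the receptors summed to 67.9 ± 63.2 CPM per kb in the rich and 171 ± 75.2 CPM per kb in the poor libraries, and the ligands to 545 ± 63.4 and 419 ± 68.5 CPM per kb.

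The receptor make-up differed between the fractions over all 12 libraries. Axl made up 73.0% ± 10.3 of the receptor reads per exon length in the 6 astrocyte libraries and 15.6% ± 5.32 in the 6 microglia libraries, a difference of -57.3 points. Its lowest astrocyte share was 58.4% and its highest microglia share 22.1%. Mertk took 25.5% ± 9.41 and 79.98% ± 10.03, a difference of 54.4 points, with shares of 14.8 to 38.8% and 64.1 to 91.1%. All 6 libraries of each fraction lay on their own side for Axl and Mertk. With Tyro3 so low, the Mertk share is nearly what Axl leaves, and since Axl chose the set no p is given for the receptor shares. The Tyro3 share was 1.51% ± 0.93 and 4.37% ± 5.51, with overlap. Of the ligand reads per exon length, Gas6 made up 89.5% ± 2.59 in astrocytes and 70.7% ± 20.8 in the microglia fraction (two-sided exact permutation p = 0.091, adjusted 0.12 over 4 shares). The adjusted values for Gas6 in this paragraph count the receptor shares too, so they also depend on the choice of Axl. Without the choroid plexus-rich libraries, an analysis chosen after seeing the data, the Gas6 difference was -37.4 points (exact permutation p = 0.024, the smallest possible, adjusted 0.024). The Tyro3 difference was then -1.42 points, so its sign turned. In the poor libraries Gas6 was 54.99, 50.8 and 50.5% of the ligand reads. Leaving out GFP-2328 brought the Gas6 difference to -23.7 points (exact permutation p = 0.017, adjusted 0.023).

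**Figure D4:**
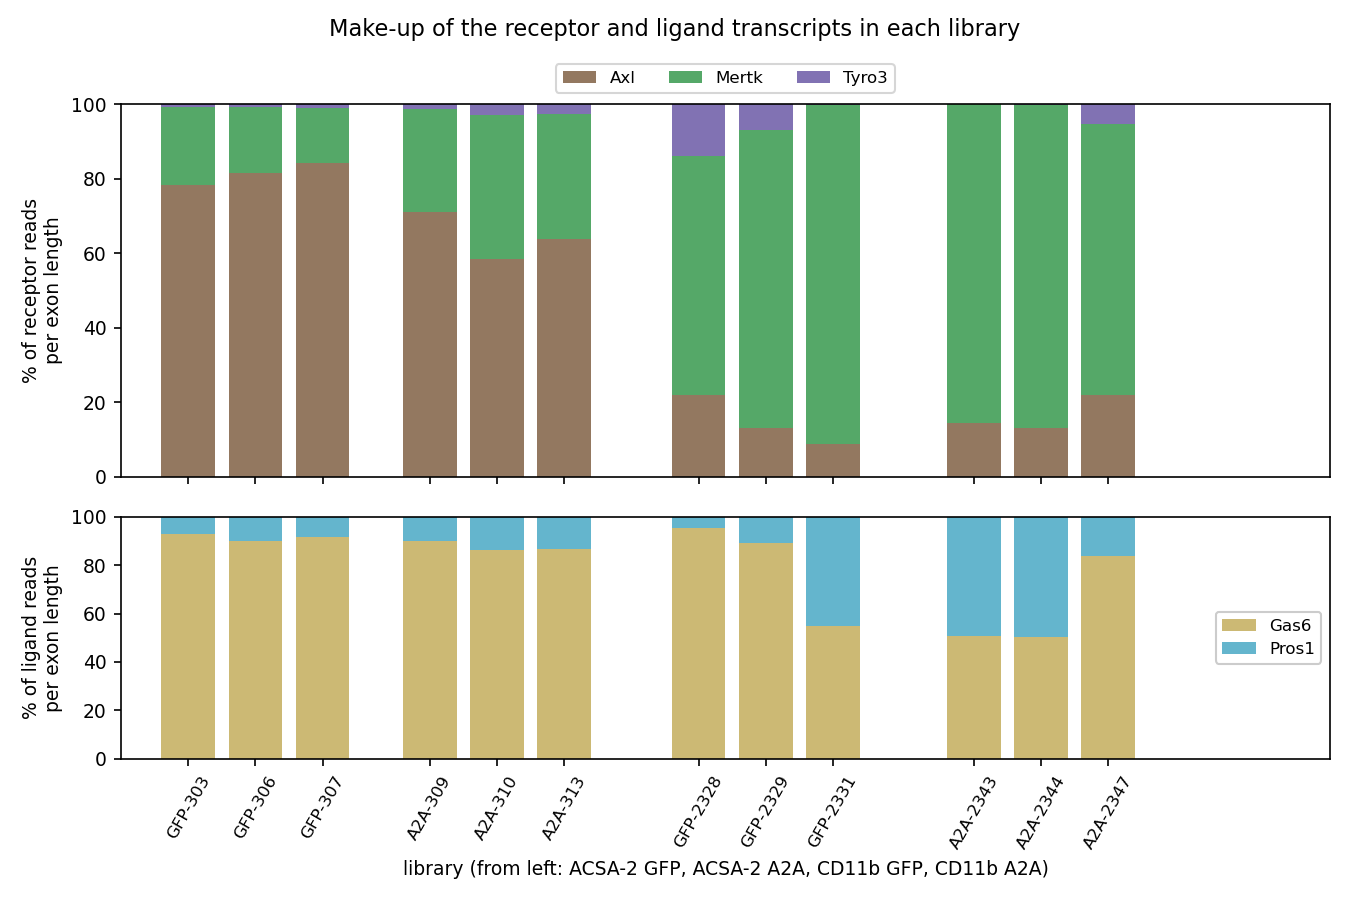
Share in percent of Axl, Mertk and Tyro3 in the receptor reads per exon length (top) and of Gas6 and Pros1 in the ligand reads per exon length (bottom) in each of the 12 libraries. Axl fills 58.4 to 84.3% of the receptor bars in the ACSA-2 libraries and 8.83 to 22.1% in the CD11b libraries, and Pros1 is near the level of Gas6 only in GFP-2331, A2A-2343 and A2A-2344.

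Within the astrocyte fraction the Axl share was 81.4% ± 3.04 with AAV-GFP and 64.5% ± 6.32 with AAV-A2A, and the Mertk share 17.8% ± 3.11 and 33.3% ± 5.60. In the microglia fraction, where the level of Axl was higher with AAV-A2A, its share was 14.7% ± 6.75 with AAV-GFP and 16.6% ± 4.76 with AAV-A2A, with overlap.

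The fractions were then compared in the AAV-GFP libraries by edgeR across all genes, microglia minus astrocytes, where 26.7% of 18602 genes were called. Of the members other than Axl, which chose the set, Pros1 alone was called, higher in the microglia fraction. Pros1 averaged 318.5 ± 276 against 64.7 ± 18.7 CPM (log2 FC 2.30, SE 0.58, edgeR adjusted p = 0.013), and every CD11b control lay above every ACSA-2 control. The call was lost without GFP-303 (log2 FC 2.09, edgeR adjusted p = 0.060). Leaving out GFP-2331 brought the value to 1.33. Without the choroid plexus-rich libraries, which leaves GFP-2331 as the only CD11b control, it was 3.31. Gas6 averaged 977 ± 456 against 423.5 ± 60.4 CPM (log2 FC 1.21, SE 0.43, edgeR adjusted p = 0.057) and was called by DESeq2 (adjusted p = 0.024), with edgeR at a minimum of 10 counts in every library (adjusted p = 0.049), and without GFP-2331 (log2 FC 1.54, edgeR adjusted p = 0.014) or A2A-2347 (1.21, adjusted p = 0.033). Without the choroid plexus-rich libraries, again with GFP-2331 as the only CD11b control, the Gas6 value was 0.21. Mertk averaged 211 ± 193 against 87.3 ± 11.9 CPM (log2 FC 1.27, SE 0.55, edgeR adjusted p = 0.11). Mertk was called without GFP-2328 (log2 FC 1.69, edgeR adjusted p = 0.024), while without GFP-2331 its value was 0.21 (adjusted p = 0.71). Without the choroid plexus-rich libraries its value was 2.33, with GFP-2331 as the only CD11b control. Tyro3 averaged 12.8 ± 10.95 against 5.60 ± 0.88 CPM (log2 FC 1.19, SE 1.36, edgeR adjusted p = 0.54). Its sign turned without the choroid plexus-rich libraries (-3.19, with GFP-2331 as the only CD11b control). Axl was at 33.9 ± 12.7 against 466 ± 36.7 CPM (log2 FC -3.78, SE 0.34), 13.7 times lower. The same control libraries entered the differences by which Axl was chosen, so no p is given for it. In the AAV-A2A libraries the same difference was -0.34 (SE 0.30) for Axl, 3.03 (SE 0.58) for Mertk, 1.08 (SE 1.35) for Tyro3, 1.63 (SE 0.43) for Gas6 and 3.65 (SE 0.61) for Pros1.

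Around the TAM axis, 69 of 70 listed genes of phosphatidylserine recognition, engulfment, ligand processing, receptor shedding and receptor signalling were measured (Havcr1 is not listed in either table). In astrocytes 64 of them were tested by vector, and 6 were called by edgeR, all lower with AAV-A2A, or 9.38% beside 3.36% of all genes. Over all genes 29 were called higher and 524 lower. Of 15 genes of the engulfment machinery 4 were called. Crkl, an adaptor of the Rac pathway that drives the engulfing cup, fell from 357 to 60.1 CPM (log2 FC -2.55, SE 0.49, edgeR adjusted p = 0.021). Abca1, a lipid transporter, fell from 432 to 153 CPM (-1.46, adjusted p = 0.020), Bcar1 (p130Cas), a partner of Crk adaptors, from 201 to 73.7 CPM (-1.42, adjusted p = 0.0037) and Ptk2 (focal adhesion kinase), which lies downstream of Mertk, from 211 to 99.1 CPM (-1.07, adjusted p = 0.010). Lrp1, a scavenger and engulfment receptor, was 1 of 16 other receptors and bridges called, from 725 to 238 CPM (-1.58, SE 0.26, adjusted p = 0.0092). Pik3r1, the regulatory subunit of the PI3-kinase that TAM receptors recruit, was 1 of 15 signalling genes called, from 256 to 58.0 CPM (-2.12, SE 0.24, adjusted p = 0.0025). None of the 7 genes of phosphatidylserine exposure, the 4 of ligand carboxylation and processing (Ggcx, Vkorc1, Vkorc1l1 and Furin), the 4 of receptor shedding (Adam10, Adam17, Rhbdf1 and Rhbdf2) or the 3 other reported ligands was called by edgeR. At an unadjusted p under 0.05, 15 of the 64 passed, 14 of them lower, beside 2141 of all 16451 genes, whose direction was not counted. DESeq2 called 1 higher and 12 lower, where it called 7.13% of all genes. The median log2 FC of the list was -0.19, beside 0.02 over all genes. The count was 3 without GFP-306 and 1 with all 12 libraries in one fit.

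In the microglia fraction 65 pathway genes were tested by vector and edgeR called 0, as for all genes. At an unadjusted p under 0.05 there were 18, of which 17 were higher with AAV-A2A, beside 2704 of all 16949 genes. The direction of those 2704 was not counted. The smallest edgeR adjusted p of the list was 0.28. DESeq2 called 2, both higher, where it called 2.9% of all genes: Ano6, a scramblase that exposes phosphatidylserine (35.6 CPM with AAV-GFP against 129.9 CPM, edgeR log2 FC 1.86, SE 0.49), and Furin, a proprotein convertase (27.2 against 119 CPM, edgeR log2 FC 2.13, SE 0.58). Of the 65, 52 had a value above 0 and the median log2 FC was 0.67, beside -0.05 over all genes. With the choroid plexus set as a term the median was 0.61, and in the poor libraries alone it was 0.36. By list, the median was highest in the 4 shedding genes (1.51), which include Adam10 and Adam17, whose proteases cut Mertk and Axl from the cell surface. It was 0.90 for other receptors and bridges, 0.72 for signalling, 0.59 for the engulfment machinery and 0.48 for other reported ligands. For ligand carboxylation and processing it was 0.21, and for phosphatidylserine exposure 0.15. The microglia markers ranged from 6198 to 46236 CPM with AAV-GFP and from 18465 to 52103 CPM with AAV-A2A, and their part in these values was not tested.

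**Figure D5:**
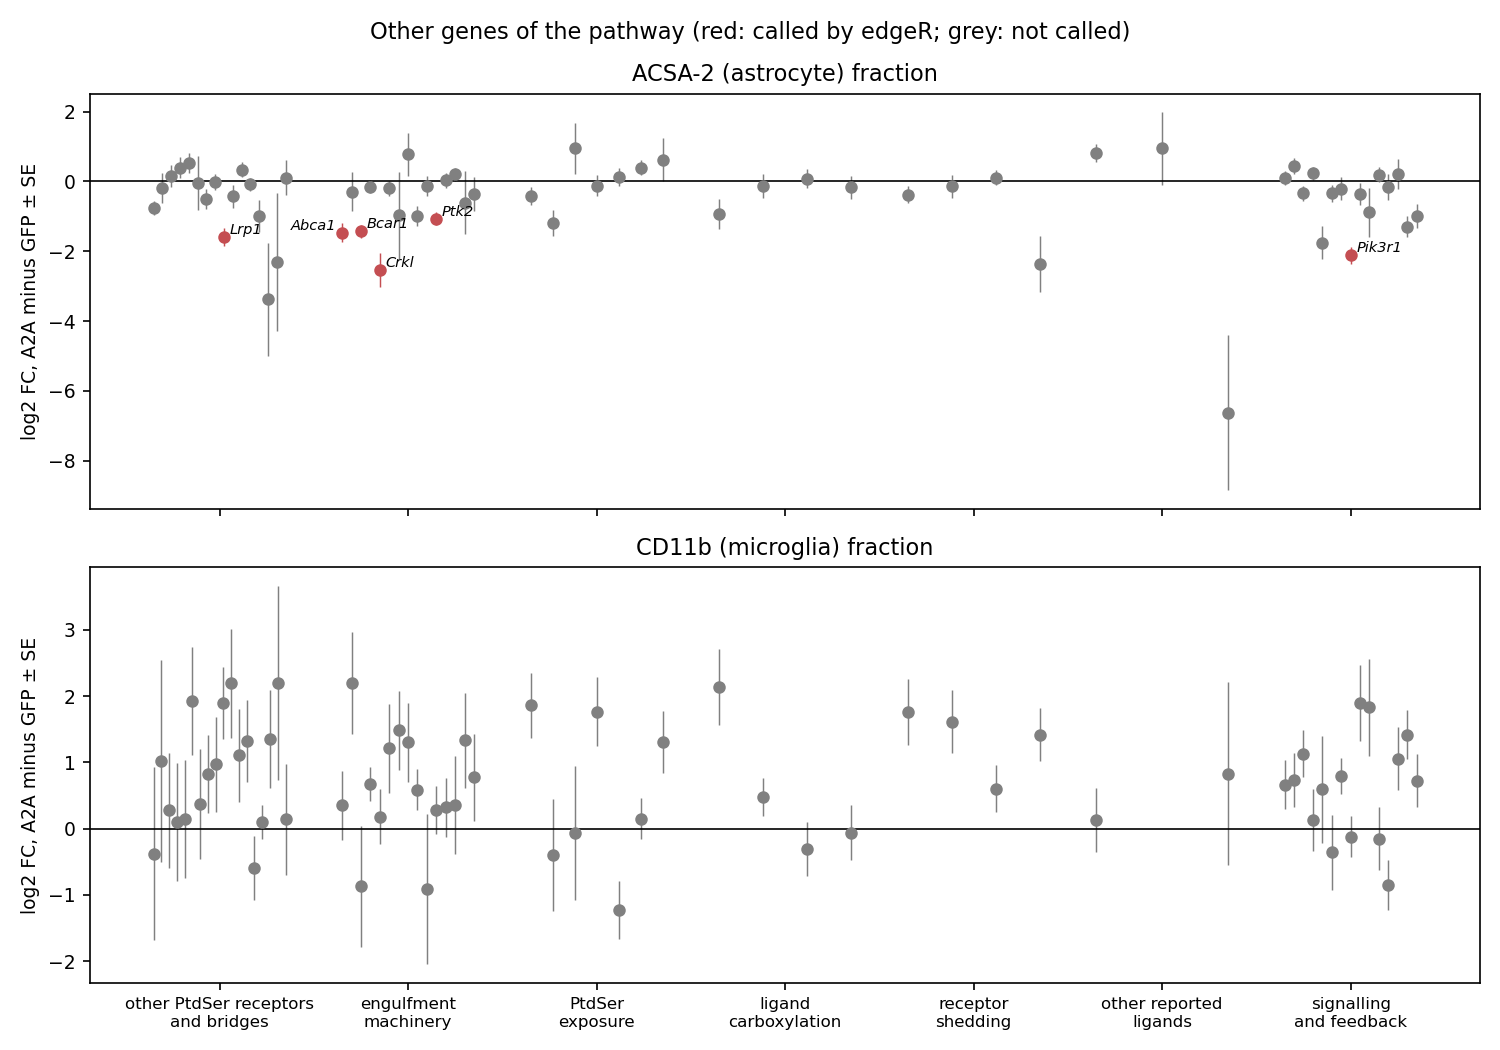
Log2 fold change ± SE (edgeR, AAV-A2A minus AAV-GFP) of the other pathway genes by role, in the ACSA-2 libraries (top, 64 genes) and the CD11b libraries (bottom, 65 genes), with called genes in red and named. The 6 called genes are all lower in the ACSA-2 libraries, and in the CD11b libraries 52 of 65 values lie above 0 with none called.

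Between the fractions of the AAV-GFP controls, 33 of 68 pathway genes were called by edgeR, or 48.5% beside 26.7% of all genes, 24 higher and 9 lower in the microglia fraction. The largest differences toward microglia among genes with a mean of at least 5 CPM were Havcr2 (Tim-3), a phosphatidylserine receptor of immune cells (177 against 0.474 CPM, log2 FC 8.53, SE 1.43, edgeR adjusted p = 0.0015), Dock2, a myeloid Rac activator (74.1 against 0.485 CPM, 7.25, SE 0.93, adjusted p = 0.0003), and Vav1 (276 against 2.93 CPM, 6.55, SE 1.03, adjusted p = 0.0010). Toward astrocytes they were Megf10, an astrocyte engulfment receptor (0.160 against 21.1 CPM, -6.98, SE 0.99, edgeR adjusted p = 0.0010), Adgrb1 (BAI1), a phosphatidylserine receptor (1.03 against 61.5 CPM, -5.89, SE 1.02, adjusted p = 0.0018), and its relative Adgrb3 (0.397 against 13.2 CPM, -5.04, SE 1.25, adjusted p = 0.012). Of 20 other receptors and bridges 10 were higher and 5 lower in the microglia fraction, and of 15 signalling genes 6 and 1. Of the 4 shedding genes 3 were higher in the microglia fraction.

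Likeness of pattern was measured as the Pearson r of log2 CPM over the 12 libraries with each of 11622 other genes at a mean of 5 CPM or more. The libraries form separate fractions, so r weighs the difference between fractions heavily. Axl was most like Gpam, a mitochondrial acyltransferase of lipid synthesis (r = 0.97), Sept8, a septin (0.95), and Tcf7l2, a transcription factor of the Wnt pathway (0.94). Gpam was at 160, 73.1, 9.80 and 43.8 CPM in control astrocytes, AAV-A2A astrocytes, control microglia and AAV-A2A microglia. Mertk was most like Jak1 (0.99), Lpcat1 (0.99) and Slc44a2 (0.98), Pros1 most like Daglb, Plod3 and Plxdc2 (each 0.99), Tyro3 most like Fads3, Shisa2 and Nedd4 (each 0.97), and Gas6 most like Prkcq (0.97), Got2 (0.97) and Frmpd4 (0.97). None of the 3 nearest genes of any member was another member.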

How the data were processed

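The authors sequenced poly(A) cDNA made from low-input RNA with a SMART-Seq v4 kit (12 cycles of PCR for the cDNA and 12 for the library, without molecular identifiers) as 50-base single reads, trimmed them with cutadapt 1.10, aligned them to mm10 with STAR 2.5.3 and counted reads per Ensembl gene with HTSeq 0.6.1p1. The deposited values used here are these raw read counts, in one table per fraction, and 25 columns with no name and no value were not used. Replicate pairs of a group differed by more than sampling noise. The study gives 3 animals per group for the astrocyte data. For the CD11b libraries the sources do not say whether a library is 1 animal, so p-values measure the spread between libraries.

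Genes were tested with edgeR 4.0.16 in R 4.3.3 (quasi-likelihood fit, TMM scaling, filterByExpr at a count of 10, Benjamini-Hochberg adjustment over all genes tested). Calls needed an adjusted p below 0.05 and a log2 FC above 0.32 in size. The vector was fitted within a fraction on 6 libraries, and the fractions in a fit of 12 libraries and 4 groups over the 25442 genes listed in both tables. Shares were compared by two-sided exact permutation, and no p is printed for the receptor shares, which hold Axl. Alternatives used DESeq2 1.42.0 and limma 3.58.1, and the scripts were tested on simulated data. Exon lengths come from GENCODE M21. The members and gene lists were chosen with earlier results of these data known. The named pathway genes were the called ones by vector, up to 6 per direction by absolute log2 FC, and between fractions the 3 most changed each way at a mean of 5 CPM or more. Ano6 and Furin were named after their values were seen.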

Additional observations from a re-analysis of the deposited data

Results flagged for a closer look

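For Axl, which was chosen by this pattern, the AAV-A2A libraries lay under every control in the astrocyte fraction (3 of 3). In the microglia fraction they lay above every control (3 of 3). Such a lack of overlap, in either direction, was seen for 19.4% of all genes tested in astrocytes and 22.4% in the microglia fraction. How many genes turned between the fractions as Axl did was not counted. Per 1000 CPM of microglia markers the CD11b groups overlapped for Axl (1.05 to 4.54 with AAV-GFP, 2.09 to 8.43 with AAV-A2A), and the ratio of means was 1.88, beside a fitted 4.24-fold on the CPM scale. The difference between the fractions in its log2 FC by vector, microglia minus astrocytes in a fit of all 12 libraries, was 3.44 (SE 0.44), beside 1.75 (SE 0.77) for Mertk, 1.36 (SE 0.78) for Pros1, 0.42 (SE 0.60) for Gas6 and -0.11 (SE 1.89) for Tyro3. The difference was not tested, because it is what the gene was chosen by. Fraction and animal cannot be told apart in it.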

How the results depend on the processing

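Each result was recomputed with DESeq2, limma-voom, other scaling, other filters, other sets of libraries and each library left out. DESeq2 called 2 members and 13 pathway genes by vector in astrocytes and 1 member and 2 pathway genes in the microglia fraction, against 1, 6, 0 and 0 by edgeR, and one fit of all 12 libraries called 0 members and 1 pathway gene in astrocytes. Leaving out a library gave 3 to 6 pathway genes by vector in astrocytes and 1 to 3 members between the fractions, a count that includes Axl. With the 6 AAV-GFP libraries alone the share differences were -66.7 points for Axl and 60.6 points for Mertk. Without the choroid plexus-rich libraries, chosen after seeing the data, the Tyro3 share difference reversed to -1.42 points and the Gas6 share difference was -37.4 points and passed. The Tyro3 log2 FC between fractions then reversed to -3.19, with GFP-2331 as the only CD11b control. Leaving out 1 library gave a Gas6 share difference of -23.7 to -14.7 points. The cause of these shifts was not tested. The other 145 recomputed counts and shares kept their direction and side of the threshold, or stayed within 1.5 times the count. Scaling by library totals moved the median log2 FC over all genes from -0.05 to -0.17 by vector in the microglia fraction and from 0.11 to 0.23 between fractions. No paired analysis between the fractions was possible because the labels do not link their libraries to animals. With 3 libraries per group and a biological coefficient of variation of 0.71 in the microglia fraction, against 0.52 in astrocytes, the spread between libraries and not the read depth limits the precision.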
